A study of Mus musculus with 2 samples.

Results

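The RIKEN 1700 series transcripts are mouse genes still known by the name of a cDNA clone, a symbol that opens with 1700 and closes with Rik. Members were the genes of that series with at least 20 counts per 1000000 (CPM) in at least 1 of 9 wild-type stages, from early pachytene to elongated spermatids. CPM is the number of unique molecular identifiers (UMIs, single captured molecules) of a gene, summed over the cells of a stage, per 1000000 UMIs of that stage. The rule was met by 296 of 427 series symbols, out of 31053 genes measured. Wild-type levels therefore chose the members, and those levels are given as a description. Just inside the threshold were 1700041M19Rik (20.1 CPM), 1700112J16Rik (20.6 CPM) and 1700109K24Rik (20.8 CPM). Just outside were 1700030A11Rik (19.4 CPM), 1700095J07Rik (18.8 CPM) and 1700128E19Rik (18.8 CPM).

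RIKEN clone names come from the mouse full-length cDNA project, and the 1700 clones were taken from a library of adult mouse testis. Many of these transcripts have no assigned function, and the clone name carries none. Male germ cells are known for wide transcription of long non-coding RNAs and of testis-restricted coding genes, which begins in pachytene spermatocytes, pauses through the meiotic divisions and resumes in round spermatids. Pachytene is the long stage of meiotic prophase in which homologous chromosomes are synapsed and recombine.

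The cells were germ cells of adult C57BL/6 testis in 1 wild-type (WT) library and 1 library with the genotype label Zfp541-/-, called knockout-labelled here. ZFP541 is a zinc finger protein made in spermatocytes and spermatids. Tetraploid germ cells were sorted by flow cytometry, per the labels' protocols, and loaded on a 10x Chromium chip with a 3' kit, although the sample titles name whole testis. A tetraploid gate would remove haploid cells, yet the wild-type library holds cells named round and elongated spermatids, on which most of the peaks below rest. The labels do not give the number of mice or the deleted part of the gene. The stages were the authors' names: differentiated spermatogonia (Diff.Spg1 to Diff.Spg3), preleptotene, leptotene, zygotene, early (eP), mid (mP) and late (lP) pachytene, diplotene (D), first meiotic division (MI), round spermatids (RS.1, RS.2, RS.3) and elongated spermatids (ES). With 1 library per genotype there was no replicate and no test. Intervals are at 95% and cover counting error alone.

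Annotated cells numbered 8420 (108612781 UMIs) in wild type and 8833 (119675250 UMIs) in the other library. The median cell had 7945 UMIs in wild-type mP (1207 cells) and 18665 in knockout-labelled mP (2501 cells). In lP the medians were 9210 (827 cells) and 23690 (1945 cells). The knockout-labelled library had 13 cells in D and none in a later stage, so it was compared at pachytene. Zfp541 itself was at 28.1 CPM in wild-type mP and 81.9 in knockout-labelled mP, and at 35.8 and 70.6 in lP. Since the deleted part is not known here, 3' tags of the gene do not check the label, and every direction below rests on it. The 10 pachytene markers summed to 11330 and 11010 CPM in mP and to 12610 and 12440 in lP, wild type first. Markers of neighbouring stages did differ. The 10 leptotene and zygotene markers summed to 2712 and 3424 CPM in mP and to 1589 and 2619 in lP, and the 7 markers of diplotene and division to 798 and 507 in mP and to 768 and 407 in lP. The cells compared under 1 stage name may thus not be equally advanced, and the part of this in the member ratios was not tested. None of them was among the 10 leading genes of an mP or lP cluster, nor was a marker of another class. The 3 clusters named D had no diplotene marker among their leading genes either, and cluster 3 had the pachytene marker Pou5f2, so D is used as the authors' name for a stage of peak. The 2 libraries shared 17 annotated barcodes.

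Of the 296 members, 209 had a promoter in the RefSeq table (GRCm38.p6, the build of mm10), here the 250 bases before to 50 after the start. The sequences below run from 80 bases before to 20 after the start, 5' to 3' on the strand of the gene. The first 3 are among the 6 members of lowest ratio in late pachytene, the next 3 among the 4 abundant members whose ratio was nearest 0, and the last holds a whole cAMP response element. Capitals mark motifs searched on both strands. These were the cAMP response element (CRE), spelled TGACGTCA, which CREM and related factors bind. The MYB-like core was spelled AACNGC, after the sites of the pachytene regulator MYBL1. For the X-box of RFX factors, regulators of cilium genes, a core of GTTGCC was searched. The general promoter elements were the GC box, GGGCGG, and the CCAAT box, whose name is its spelling. The last was a TATA box written TATAAA. Where 2 motifs overlap, as in 1700108J01Rik, the capitals run together.
1700003I22Rik: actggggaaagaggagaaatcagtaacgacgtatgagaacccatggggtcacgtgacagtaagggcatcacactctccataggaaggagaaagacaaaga
1700016K05Rik: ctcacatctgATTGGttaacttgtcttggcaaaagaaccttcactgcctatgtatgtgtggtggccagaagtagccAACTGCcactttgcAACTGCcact
1700025F24Rik: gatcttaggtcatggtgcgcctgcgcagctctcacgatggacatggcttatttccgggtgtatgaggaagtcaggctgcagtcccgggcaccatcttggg
1700088E04Rik: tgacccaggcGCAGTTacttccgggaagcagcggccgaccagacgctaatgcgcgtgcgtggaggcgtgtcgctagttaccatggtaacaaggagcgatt
1700037H04Rik: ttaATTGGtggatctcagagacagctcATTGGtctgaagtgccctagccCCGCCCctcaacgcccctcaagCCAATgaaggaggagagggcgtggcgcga
1700108J01Rik: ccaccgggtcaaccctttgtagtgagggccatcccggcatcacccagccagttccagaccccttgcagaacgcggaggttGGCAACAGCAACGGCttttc
1700041M19Rik: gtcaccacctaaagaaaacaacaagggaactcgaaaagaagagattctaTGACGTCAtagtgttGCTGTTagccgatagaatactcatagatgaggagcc
In that order they lie at chr1:56018898-56018997 (plus strand), chr17:66714376-66714475 (plus strand), chr10:119413364-119413463 (plus strand), chr15:79141232-79141331 (minus strand), chr2:131160062-131160161 (minus strand), chr14:122233619-122233718 (minus strand) and chr16:77010862-77010961 (minus strand). The printed 100 bases of 1700003I22Rik and 1700025F24Rik held none of the 6 motifs, and that of 1700016K05Rik held a CCAAT box and 2 MYB-like cores. A match is a run of letters and was not tested as a site.

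In the GENCODE M21 annotation 197 members (66.6%) were long non-coding RNAs and 99 (33.4%) were protein coding. Of the 8123 other genes that met the same rule, 8.57% were long non-coding. The members lay on 20 chromosomes, with 6 on the X and 0 on the Y. Their median gene span was 6937 bp, against 20344.5 bp for the other genes. Another gene on the opposite strand overlapped 111 members (37.5%), among them 1700016K05Rik over Ptprm and 1700027A15Rik over Tnp1, a transition protein gene of spermatids. The sources used here do not give the strand setting of the counting, so reads of such a pair may not be told apart.

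Most members had their wild-type peak after meiosis. The peak stage was eP for 7 members, mP for 5, lP for 5, D for 17, MI for 41, RS.1 for 14, RS.2 for 55, RS.3 for 95 and ES for 57. The summed level of the members was 8871 CPM in wild-type eP, 15082 in mP, 18667 in lP, 24979 in D, 28806 in MI, 34439 in RS.1, 47496 in RS.2, 62064 in RS.3 and 55368 in ES. Among the most abundant were the coding 1700003F12Rik (5342 CPM in RS.3), the antisense RNA 1700027A15Rik (3088 CPM in ES) and the long intergenic RNA 1700018B24Rik (2036 CPM in MI). The members that peaked earliest included 1700048O20Rik, a long intergenic RNA with 768 CPM in eP. The stage of peak depends on the scale: by UMIs per cell 69 members peaked in RS.1 and 153 in RS.3.

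**Figure D1:**
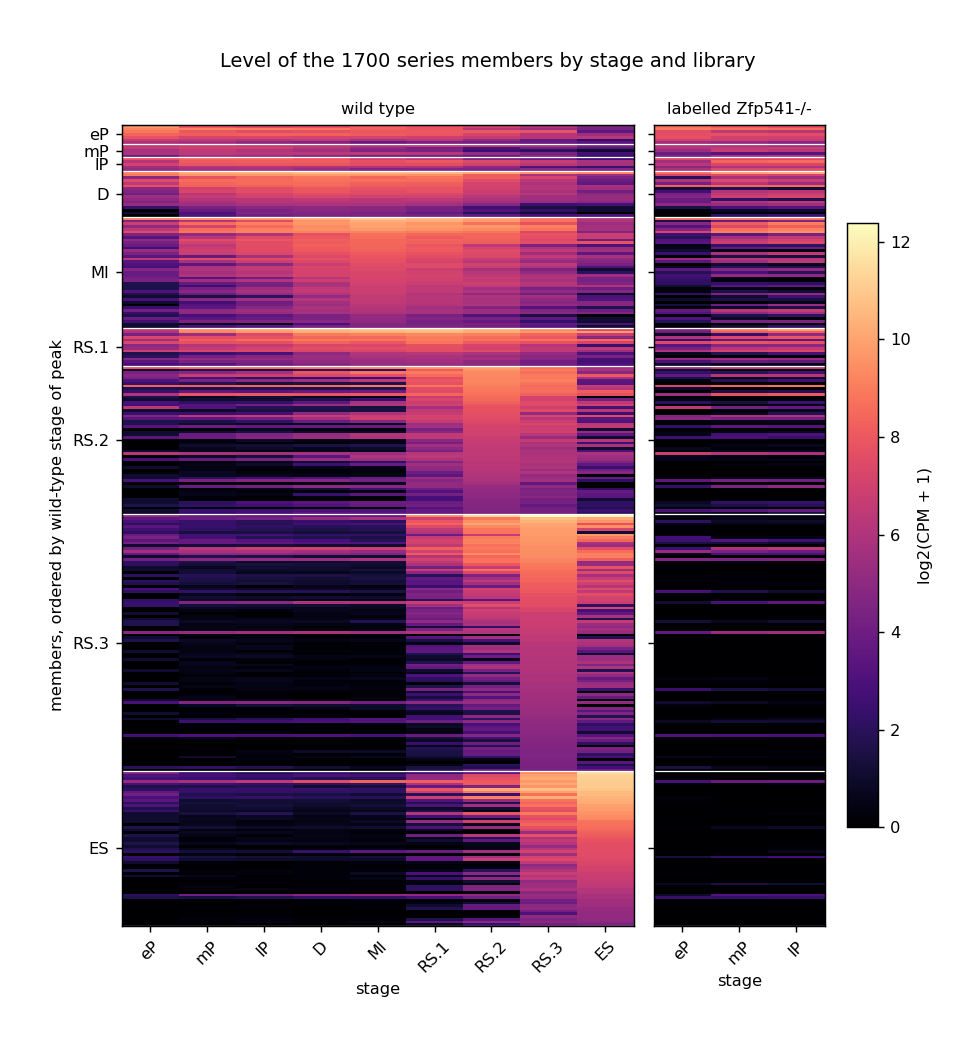
Level of each of the 296 members as log2(CPM + 1), 1 row per member, in 9 wild-type stages (left) and 3 knockout-labelled stages (right), with rows ordered by wild-type stage of peak and white lines between the groups. Most rows of the RS.3 and ES groups are dark in the pachytene columns, and several rows of the D and MI groups are bright in wild-type lP and dark in the knockout-labelled column.

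Member transcripts were a smaller share of the RNA of knockout-labelled pachytene cells than of wild-type ones. The summed level was 15082 CPM in wild-type mP and 9974 in knockout-labelled mP, and 18667 against 11662 in lP. Counted per cell the order was the other way, with 121 and 195 member UMIs per cell in mP and 180 and 281 in lP, since the knockout-labelled cells were deeper. Whether cells held more RNA or were captured more deeply cannot be told apart. The members were chosen on wild-type levels, which favours that library. Without a UMI in both stages were 101 members (34.1%) in the knockout-labelled library and 12 (4.05%) in the wild-type library, beside 6.86% and 0.84% of the other genes that met the rule. Of the 101, 88 peak in RS.3 or ES, and wild-type pachytene cells also held elongating spermatid RNA that the others nearly lacked, as given below. The 10 most abundant members carried 40.2% of the member UMIs in wild-type lP and 49.7% in knockout-labelled lP. In both libraries 1700008K24Rik, a long intergenic RNA at chr17:49112263-49113535, led that list in both stages.

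Member by member, the CPM difference was mostly in 1 direction, a direction that the median lost when counted in UMIs per cell. A member was counted as lower or higher past a 2-fold difference in CPM, among those that reached 10 CPM in the higher library, after adding 0.5 counts to each sum. In lP 115 of the 296 members reached 10 CPM, and 58 were at least 2-fold lower in the knockout-labelled library while 5 were higher. Over all 7635 genes at that level 14.3% were lower and 17.4% higher, and over the other genes that met the rule 14.6% and 11.7%. The median log2 ratio, knockout-labelled over wild type, was -1.02 for these members and 0.03 for the other genes that met the rule. In mP 107 members reached 10 CPM, with 49 lower and 3 higher and a median of -0.74. The background in mP was 10.6% lower and 15.0% higher over all 7701 genes, and 11.0% and 9.28% over the other genes that met the rule, with a median of 0.06. At least 10-fold lower were 28 of 115 members in lP and 17 of 107 in mP, beside 200 of 6331 and 106 of 6326 other genes that met the rule. In UMIs per cell the medians were 0.54 in mP and 0.30 in lP, with 29 members lower and 35 higher in mP, and 39 lower and 37 higher in lP. That scale moves every gene alike, by 1.28 in mP and 1.32 in lP. The gap between the median of the members and that of the other genes is thus unchanged. Shares of other genes past 2-fold on that scale were not counted, so these counts have no background.

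The filter itself favours genes that are high in 1 library. In lP 38 members passed it through the wild-type library alone, 2 through the knockout-labelled library alone and 75 through both. A member that passed through 1 library had to differ. Among the 75 that passed in both, 21 were at least 2-fold lower and 3 higher, with a median of -0.38. That is 28.0% lower, against 8.19% of the other genes that passed in both. In mP it was 18 lower and 2 higher of 72, or 25.0% lower against 6.40%. The 47 members lower in both stages were 95.9% of the mP list and 81.0% of the lP list, and mP and lP are different cells of the same 2 libraries.

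**Figure D2:**
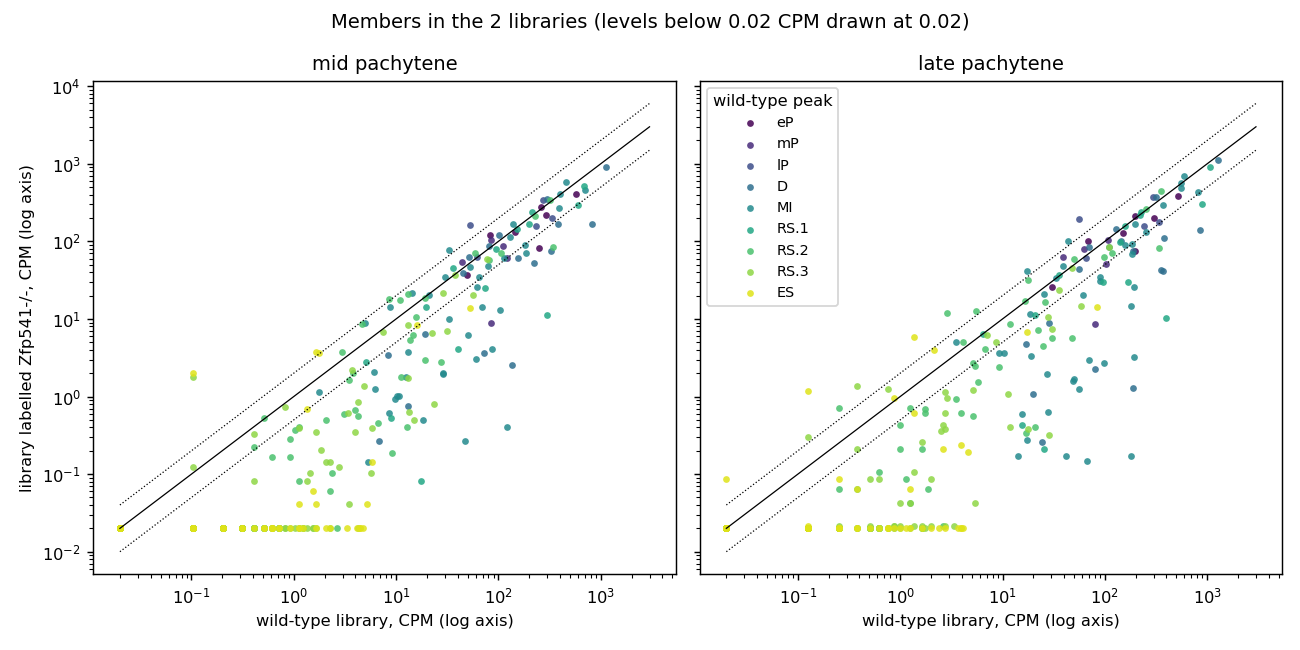
Level of each member in wild-type (x) and knockout-labelled (y) mid and late pachytene, in CPM on log axes, with values below 0.02 CPM drawn at 0.02 and colour giving the wild-type stage of peak. The solid line marks equal levels and the dotted lines 2-fold, and in lP 58 members of at least 10 CPM lie below the lower dotted line and 5 above the upper one. On a scale of UMIs per cell every point would move up by 1.32 in log2 in lP and the median would be above 0.

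The lower members were found within each authors' cluster of these stages. In the 4 mP clusters, numbers 2, 4, 7 and 11, the counts lower and higher were 52 and 4 of 110, 41 and 4 of 99, 53 and 3 of 109, and 48 and 3 of 103. In the 3 lP clusters, numbers 0, 5 and 22, they were 57 and 6 of 114, 57 and 6 of 112, and 55 and 5 of 113. The 2 libraries fill these clusters unequally, with 234 wild-type cells and 102 others in cluster 22, and 107 and 884 in cluster 5. Among the other genes that met the rule, between 8.84% and 15.8% were lower in a cluster and between 8.99% and 12.6% higher.

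RNA of elongating spermatids was present in the wild-type cells and nearly absent from the knockout-labelled ones. Summed over 8 markers, it was 293 CPM in wild-type mP and 230 in wild-type lP, and 600.5 CPM in wild-type spermatogonia to zygotene, stages that are known to lack these transcripts. In knockout-labelled cells it was 1.37 CPM in mP (3 of 8 markers with a UMI) and 1.30 in lP (4 of 8), with Prm1, Tnp1, Tnp2 and Hils1 at 0 in both. The 8 round spermatid markers summed to 84.0 and 94.8 CPM in wild-type mP and lP and to 55.1 and 61.9 in the knockout-labelled cells. Its part in the member ratios was not tested. The spermatid-peaking 1700027A15Rik was at 9.29 CPM in wild-type spermatogonia to zygotene and at 4.73 in wild-type mP, and had no UMI in knockout-labelled mP or lP. Where the other library has no UMI only a bound holds, and 1700029H14Rik, at 3.63 CPM in wild-type lP and without a UMI in the lP cells of the other library, was at least 56.8-fold lower against a floor of 3 counts. Sertoli markers summed to between 5.51 and 29.5 CPM, and Leydig, peritubular, endothelial, macrophage and red cell lists to at most 5.04 CPM in any of these 4 groups of cells.

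By CPM, larger shares of the members that peak in diplotene or the first division were lower than of those that peak in pachytene. In lP 11 of 17 members of the D group were at least 2-fold lower and 0 higher, with a median log2 ratio of -1.77. Of the 38 members of the MI group that reached 10 CPM, 22 were lower and 2 higher, with a median of -1.54. Other genes peaking in D were lower in 33.2% and those peaking in MI in 27.2%, so these stages were lower more often outside the series too. Of the 17 members that peak in eP, mP or lP, 3 were lower and 1 higher, with a median of -0.22, and 9.01% of other genes of these peaks were lower. In the RS.1 group 6 of 13 were lower, beside 24.0% of other genes of that peak. In the RS.2, RS.3 and ES groups together, 177 of 207 members stayed under 10 CPM in both libraries, and of the 30 that did not, 16 were lower and 2 higher, beside 17.7% and 13.4% of other genes of these peaks. In mP 9 of 15 measured D members and 18 of 33 MI members were lower, with medians of -1.33 and -1.26. Other genes of these peaks were lower in 25.0% and 20.0%, with medians of -0.29 and -0.11. These counts include members that passed the 10 CPM filter through 1 library alone, which had to differ, and they were not split by group. In lP 15 D members reached 20 CPM in wild type and 11 in the other library. For MI members the numbers were 31 and 20, and for pachytene-peaking members 17 and 16. The filter thus has a part in the contrast between groups. The groups themselves were not tested against each other.

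**Figure D3:**
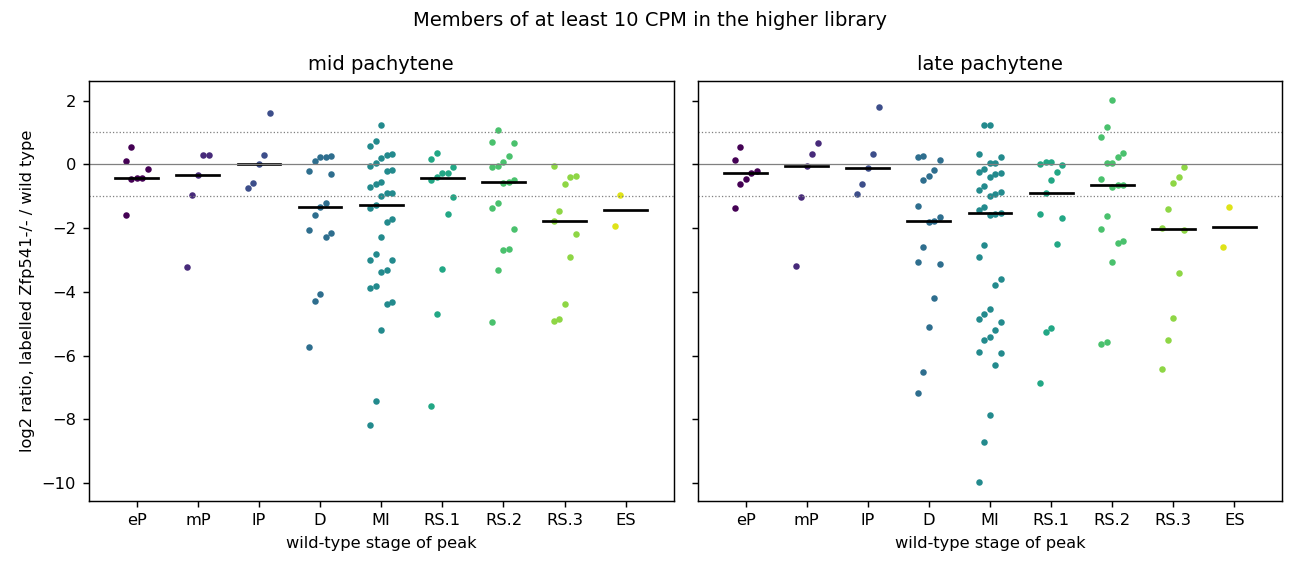
Log2 ratio of CPM, knockout-labelled over wild type, of each member reaching 10 CPM in either library, by wild-type stage of peak, in mid (left) and late pachytene (right), with black bars at the group medians. The dotted lines mark 2-fold. The medians in lP are -0.26 for the eP group, -1.77 for D and -1.54 for MI, and the points of the MI group span -9.95 to 1.25. In UMIs per cell each lP point would be higher by 1.32.

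The lowest ratio in lP belonged to 1700003I22Rik, a long intergenic RNA at chr1:56018978-56020203, whose promoter is printed first above. Its wild-type level was 38.9 CPM in eP, 122 in mP, 180 in lP, 261 in D and 311 in MI. It was lower again in spermatids, at 50.6 CPM in ES. In the knockout-labelled library it was at 1.17 CPM in eP, 0.41 in mP (20 UMIs) and 0.17 in lP (8 UMIs), and no UMI was found in spermatogonia to zygotene. The log2 ratio was -8.18 (-8.93 to -7.58) in mP and -9.95 (-11.25 to -9.06) in lP. The member was thus near 0 in every knockout-labelled pachytene stage. At least 1 UMI was found in 74.2% of wild-type lP cells (71.1 to 77.2) and 0.41% of knockout-labelled ones (0.18 to 0.81). After thinning each cell to 3000 UMIs the shares were 39.0% and 0.15%, and in wild-type spermatogonia to zygotene, where the median depth was 2227 UMIs, 1.64% of 122 cells had a UMI.

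1700016K05Rik is annotated as an antisense RNA at chr17:66714454-66720485, overlapping Ptprm. It was at 135 CPM in wild-type mP and 188 in wild-type lP, with its peak of 244 in D. The knockout-labelled levels were 2.54 and 1.30 CPM, and the log2 ratios -5.73 (-6.01 to -5.46) and -7.17 (-7.57 to -6.81). It thus showed the same order as 1700003I22Rik, with a level that was higher in lP than in mP in the wild-type library and lower in the other.

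Of the other members of lowest ratio, 4 were long intergenic RNAs. In lP 1700047M11Rik (chr1:182287990-182303325) was at 67.3 CPM in wild type and 0.15 in the other library. 1700047G03Rik (chr15:11964276-11970086) was at 41.9 and 0.17 CPM. 1700025F24Rik (chr10:119413444-119426864) was at 25.7 and 0.21 CPM. All had their wild-type peak in MI or RS.1. 1700123J17Rik (chr7:126224247-126248238), which peaks in D, was at 24.2 and 0.26 CPM. Among the 6 lowest in mP was also the antisense RNA 1700036G14Rik (chr3:85317519-85332030), at 12.9 CPM in wild-type and 0.41 in knockout-labelled mP. Of the 28 members at least 10-fold lower in lP, 22 (78.6%) were long non-coding, beside 60.0% of the 115 members that reached 10 CPM there.

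The 4 abundant coding members that follow were lower by less than the members of lowest ratio. 1700029P11Rik (chr15:81980540-81981563) was at 825 CPM in wild-type mP and 850 in wild-type lP, and at 170 and 141 CPM in the knockout-labelled cells. The log2 ratio in lP was -2.59 (-2.64 to -2.54), and 91.9% of wild-type and 32.7% of knockout-labelled lP cells had a UMI after thinning. 1700025F22Rik (chr19:11139664-11165320), which reached 1262 CPM in MI, was at 193 CPM in wild-type and 25.5 in knockout-labelled lP. 1700012B09Rik (chr9:14756587-14771030) was at 337 and 83.0 CPM there, with log2 ratios of -2.03 in mP and -2.02 in lP. 1700029F12Rik (chr13:97021864-97034362) was at 893 and 305 CPM in lP. Each of these 4 members had 1193 UMIs or more in lP of both libraries, so counting error is small beside the difference. For 1700029F12Rik the mP ratio was -1.03, and 0.25 in UMIs per cell.

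Another 2 long non-coding members lay between these and the lowest. 1700018L02Rik, antisense to Ak3 at chr19:29046245-29048729, was at 357 CPM in wild-type lP and 42.5 in knockout-labelled lP, and its log2 ratio was -3.07 (-3.15 to -2.99). 1700108N11Rik, antisense to Ovol2 at chr2:144331459-144332639, was at 168 and 29.98 CPM, with a ratio of -2.49 (-2.60 to -2.38). Both were higher in wild-type lP than in wild-type mP.

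Of the 17 members that peak in pachytene itself, 13 were within 2-fold in lP. 1700048O20Rik was at 259 and 276 CPM in mP, and at 195 and 215 in lP, wild type first. The long intergenic 1700064M15Rik was at 298 and 371 CPM in lP, a log2 ratio of 0.32 (0.26 to 0.38). The coding 1700102P08Rik was at 522 and 383 CPM in lP. 1700006A11Rik (chr3:124400989-124426040) was at 341 and 179 CPM in lP, and 1700006J14Rik, antisense to Hmga2, at 240.4 and 156 CPM. At least 2-fold higher was 1700017B05Rik, described below. The largest difference was that of 1700063H04Rik, a long intergenic RNA named after its values were seen, which was at 84.0 and 8.94 CPM in mP and at 79.5 and 8.73 in lP, a log2 ratio of -3.19 (-3.37 to -3.01). Also lower past 2-fold were the coding 1700020N01Rik (chr10:21593145-21622376), at 198 and 76.0 CPM in lP, and the coding 1700021F05Rik, at 102 and 50.6 CPM. The latter had a log2 ratio of -1.02 (-1.13 to -0.90), and 0.30 in UMIs per cell. The long intergenic 1700009C05Rik was at 109 and 105 CPM in lP.

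The 3 most abundant members of the RS.3 group and of the ES group were near 0 in knockout-labelled pachytene cells and low in wild-type ones. This did not hold for the RS.1 and RS.2 groups. The coding 1700028J19Rik, among the most abundant of the RS.1 group, was at 1056 CPM in wild-type and 899 in knockout-labelled lP, a log2 ratio of -0.23. 1700003F12Rik was at 5342 CPM in RS.3, and at 11.8 CPM in wild-type and 0.41 in knockout-labelled lP, while wild-type spermatogonia to zygotene held 31.0 CPM of it. 1700019N19Rik reached 1732 CPM in RS.3 and was at 17.9 and 0.38 CPM in lP. 1700001C19Rik reached 2417 CPM in ES and was at 4.64 and 0.19 CPM in lP. The coding 1700003H04Rik (chr3:124556352-124581101), which peaks in RS.2 at 663 CPM, was better measured in lP, at 48.3 and 5.76 CPM, with a log2 ratio of -3.07 (-3.30 to -2.84).

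Some of the most abundant members were at like levels in both libraries. In lP the ratios nearest 0 among members of at least 100 CPM were those of 1700088E04Rik, 1700037H04Rik, 1700016K19Rik and 1700108J01Rik. 1700108J01Rik, antisense to Clybl at chr14:122229905-122233654, was at 398 CPM in wild-type mP and 411 in knockout-labelled mP, and at 553 and 572 in lP. Its log2 ratio in lP was 0.05 (0.00 to 0.09). The coding 1700016K19Rik (chr11:75999912-76003569) was at 255 and 260 CPM in lP, with a log2 ratio of 0.03 (-0.04 to 0.10). The coding 1700037H04Rik (chr2:131146324-131160081) was at 219 and 217 CPM in lP, and 1700088E04Rik (chr15:79129349-79141253) at 159 CPM in both. Their wild-type peaks lay in MI, RS.2 and RS.1, the stages of peak of many lower members. 1700008K24Rik was at 1287 and 1127 CPM in lP, with a log2 ratio of -0.19 (-0.22 to -0.16).

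The members higher in knockout-labelled cells were few. 1700017B05Rik, a coding gene at chr9:57253117-57262612, was at 53.3 CPM in wild-type mP and 161 in knockout-labelled mP, and at 56.1 and 195 CPM in lP. Its log2 ratio was 1.60 (1.47 to 1.73) in mP and 1.80 (1.66 to 1.94) in lP, and it was higher in each of the 7 mP and lP clusters. With cells thinned to 3000 UMIs, 14.4% of wild-type and 43.9% of knockout-labelled lP cells had a UMI. 1700095J03Rik, antisense to Stk33 at chr7:109438618-109444893, was at 43.2 and 101 CPM in lP, and 1700001G01Rik, a long intergenic RNA, at 17.4 and 41.5 CPM. 1700034P13Rik, antisense to Vcpip1, was at 5.51 and 12.5 CPM in lP. The coding 1700029J07Rik (chr8:45953606-45975252) was at 80.1 CPM in wild-type eP, 8.44 in mP and 2.88 in lP, and at 87.5, 17.9 and 11.9 CPM in the knockout-labelled cells. Its level was thus lower in lP than in eP in both libraries, and by less in the knockout-labelled one. 1700102H20Rik was at 17.7 and 31.9 CPM in lP, under 2-fold. In mP 1700125H20Rik was at 10.9 and 17.8 CPM, under 2-fold too.

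Ratios of opposite sign in mP and lP, with both intervals clear of 0, were found for 2 members. 1700020D05Rik, a coding gene at chr19:5502767-5503787, was at 139 CPM in wild-type and 169 in knockout-labelled mP, and at 367 and 297 CPM in lP. 1700065L07Rik, a long intergenic RNA at chr6:73436986-73471021, was at 81.1 and 87.6 CPM in mP and at 144 and 102 CPM in lP. The lP ratio of 1700020D05Rik was -0.15, -0.06 and 0.00 within clusters 0, 5 and 22, against -0.30 over the stage, and the 2 libraries mix these clusters differently. Within mP its ratio was -0.16 in cluster 7 and 0.32 to 1.02 in the others. For 1700065L07Rik the mP ratios of clusters 2 and 7 were 0.03 and -0.12, with intervals that span 0. The opposite signs thus did not hold within every cluster.

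**Figure D4:**
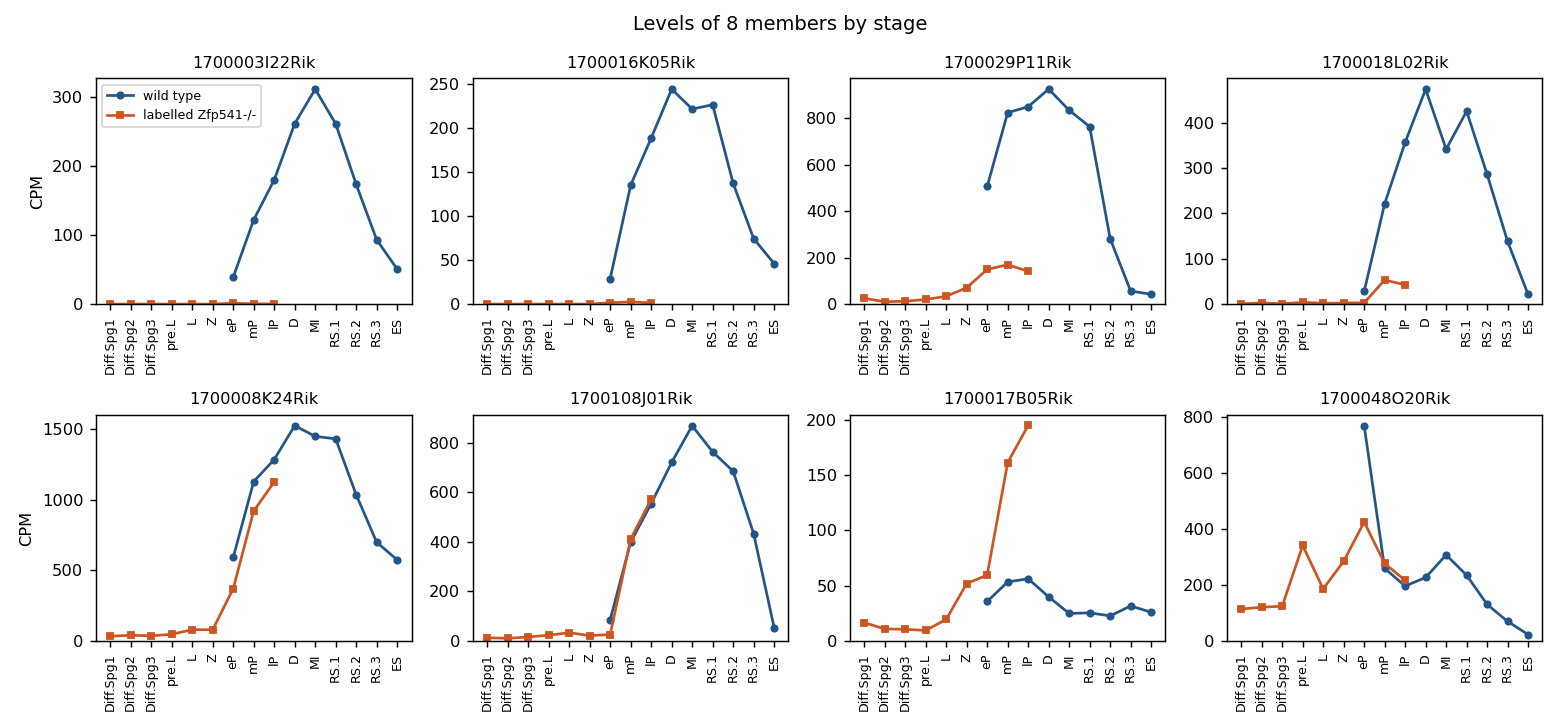
Levels in CPM of 8 members, in the wild-type library from eP to ES (circles) and in the knockout-labelled library from the first spermatogonia to lP (squares). The knockout-labelled line of 1700003I22Rik and 1700016K05Rik stays near 0, that of 1700108J01Rik lies on the wild-type line in mP and lP, and that of 1700017B05Rik is above it. In UMIs per cell the squares of mP and lP would stand higher in every panel. Wild-type stages before eP, with 122 cells in all, are not drawn, and the 2 early pachytene clusters are mixed differently in the eP points.

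Early pachytene was compared within its 2 clusters, 12 and 16, since each had the spermatogonium marker Sohlh2 and 0 pachytene markers among its 10 leading genes. In cluster 12 (75 wild-type and 713 knockout-labelled cells) 37 of 81 members at 10 CPM were lower and 2 higher, where all genes gave 8.77% lower and 14.4% higher, and the other genes that met the rule 7.68% and 9.18%. In cluster 16 (155 and 451 cells) 51 of 93 were lower and 3 higher, against 8.70% and 20.4% of all genes and 8.97% and 13.5% of the others that met the rule. Through the wild-type library alone 34 of the 81 and 34 of the 93 passed the filter, and through the knockout-labelled library alone 1 and 4. Both counts thus lean to lower by the filter. In wild-type cluster 12 only 3 UMIs make 10.1 CPM. The lowest in cluster 16 were the spermatid-peaking 1700027A15Rik (33.3 CPM in wild type), 1700012A03Rik (23.3 CPM) and 1700016H13Rik (15.0 CPM), none of which had a UMI in the knockout-labelled cells. The lowest in cluster 12 were 1700003F12Rik and 1700019N19Rik (each 16.8 CPM in wild type) and 1700101I19Rik (13.4 CPM), each from 5 wild-type UMIs or fewer and likewise at 0. Elongating spermatid markers summed to 820 CPM in wild-type eP and 2.68 in knockout-labelled eP. Their part in these counts was not tested. Of the higher members, 1700097N02Rik, a bidirectional-promoter RNA, was at 114 and 239 CPM in cluster 12. 1700040D17Rik was at 13.4 and 27.4 CPM there, from 4 wild-type UMIs. With the added counts its log2 ratio was 0.87, under 2-fold, and its interval reached from -0.36 to 2.93. In cluster 16 1700017B05Rik was at 25.0 and 62.9 CPM, 1700066M21Rik at 16.6 and 35.3 CPM, and 1700125H20Rik at 4.99 and 30.5 CPM. In cluster 12 1700065L07Rik rested on 1 wild-type UMI and its ratio interval reached from -0.55 to 7.30.

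From mid to late pachytene the members were mostly higher in the later stage in wild-type cells and less uniformly so in the others. Of 115 members of at least 10 CPM in wild-type mP or lP, 81 had a log2 ratio of lP over mP whose interval lay above 0 in the wild-type library and 10 below it, with a median of 0.42. In the knockout-labelled library 52 lay above 0 and 38 below, with a median of 0.04. The medians over the 6253 other genes of that level were -0.07 and -0.10. Intervals of other genes were not counted, here or by peak, so the counts of intervals have no background. At large UMI sums a small difference already clears 0. For the 38 members of the MI group 37 intervals lay above 0 in the wild-type library, with a median of 0.74. That group peaks after lP by definition, so a higher wild-type level in lP is partly built in, and the 959 other genes of that peak had a median of 0.29. In the knockout-labelled library 21 lay above and 10 below, with a median of 0.33, beside 0.13 for the other genes. 1700047G03Rik had log2 ratios of 1.20 in wild-type and -1.47 in knockout-labelled cells. 1700010B08Rik, a coding member that peaks in MI, was higher in lP in both, by 0.49 and 0.87. The 115 were chosen on wild-type levels, and the difference between the libraries was not tested.

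The share of lower members by class differed between stages. In lP 39 of 69 long non-coding members (56.5%) and 19 of 46 coding members (41.3%) were at least 2-fold lower. Among other genes that met the rule, 39.7% of long non-coding and 13.5% of coding genes were lower. In mP the members gave 49.2% and 41.7%, and the other genes 34.0% and 10.0%. In early pachytene the order was the other way, with 21 of 42 coding and 16 of 39 long non-coding members lower in cluster 12, and 29 of 48 and 22 of 45 in cluster 16. In lP 28 of the 69 long non-coding and 10 of the 46 coding members passed the filter through the wild-type library alone. The difference between the classes was not tested.

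The other testis clone series were set beside the members, with no test of the difference. The 4930 and 4933 clones also come from adult mouse testis, and 189 of 457 and 64 of 121 of their symbols met the rule. In lP 30 of 69 genes of the 4930 series (43.5%) were lower and 5 higher, with a median of -0.77. In the 4933 series 15 of 29 (51.7%) were lower and 0 higher, with a median of -1.08. Over the remaining RIKEN series 33 of 150 were lower and 13 higher, with a median of -0.27. In mP 45.8% of the members, 37.1% of the 4930 and 40.7% of the 4933 genes were lower. In eP cluster 12 the shares were 45.7%, 36.8% and 21.4%, and in cluster 16 54.8%, 35.7% and 33.3%. Non-coding genes made up 77.2% of the 4930, 60.9% of the 4933 and 33.8% of the remaining genes that met the rule.

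Some members shared a promoter region with a divergent neighbour. A gene starting within 1 kb on the other strand was found for 28 members, and in 13 of these pairs both genes reached 10 CPM in lP. In 3 of the 13 the member was at least 2-fold lower, and each of the 3 neighbours was within 2-fold. 1700104B16Rik was at 95.3 CPM in wild-type and 29.6 in knockout-labelled lP, while Gtf2e2, which starts 14 bp away and encodes a subunit of the general transcription factor TFIIE, was at 165 and 208. 1700037C18Rik was at 58.9 and 14.8 CPM, while Cluap1, an intraflagellar transport gene 112 bp away, was at 57.5 and 44.2. 1700100I10Rik was at 379 and 111 CPM, while the non-coding Gm31072, 51 bp away, was at 196 and 154. Pairs with a gene under 10 CPM were outside the 13, and some of their neighbours were lower too. Atp6v0e2, by the lower 1700026J14Rik, was at 9.40 and 1.58 CPM. By the lower 1700030O20Rik, 4930579P08Rik was at 1.00 and 0.04 CPM. Lysmd4, by 1700112J16Rik, was at 17.0 and 5.95 CPM. Foxf2 and 4930527E20Rik, by the lower 1700018A04Rik and 1700001O22Rik, were at 0 CPM in both libraries.

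Member promoters were poor in CpG. The 300-base windows held a median of 4 CpG, against 11 over all 19392 matched promoters and 21 over the 6290 of other genes that met the rule. Among long non-coding genes the medians were 4 for members and 4 for all matched promoters, and among coding genes 7 and 14. By peak, the median was 17 for the 14 pachytene-peaking members with a promoter, 7 for D and MI and 3 for RS.2, RS.3 and ES. Members lower in lP had a median of 7 and those within 2-fold 14. A GC box stood in 20.9% of the 43 lower members with a promoter and in 48.8% of the 41 within 2-fold, beside 43.7% of all promoters. The 2 groups differ in class. With or without a promoter, 67.2% of lower members and 51.9% of those within 2-fold were long non-coding. Over all promoters a GC box was in 18.4% of long non-coding and 48.2% of coding genes. The part of class or stage of peak in these differences was not tested. The printed promoter of 1700088E04Rik lies in a window of 30 CpG and that of 1700003I22Rik in a window of 8.

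The MYB-like core was found in 53.5% of lower members and 58.5% of those within 2-fold, and in 35.9% of all promoters. Over all 209 members it was in 40.7%, close to the 41.7% of the 6290 other genes that met the rule. It was in 10 of 14 D members (71.4%) and 8 of 11 RS.1 members (72.7%), but in 17 of 69 RS.3 members (24.6%). The X-box core was in 46 of 209 member promoters and 12.7% of all, with 36.1% in the RS.2 group. A whole CRE was in 4 of 209 members (1.91%) and 2.32% of all promoters. The 4 were 1700041M19Rik, 1700065L07Rik, 1700066M21Rik and 1700084E18Rik, and in lP 3 of them were within 2-fold and 1700041M19Rik had no UMI in either library. The TATA box was in 25 of 209 members and 13.2% of all promoters, and the CCAAT box in 39.2% and 38.5%.

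Before pachytene, a stretch the rule did not use, the members summed to 1844 CPM in the 3210 knockout-labelled cells from spermatogonia to zygotene and to 3207 CPM in the 122 wild-type cells. Elongating spermatid markers moved with it, at 4.65 and 600.5 CPM, and their part was not tested. Members of the RS.3 group summed to 229 and 532 CPM and those of the ES group to 30.7 and 155 CPM, in the same order. In the knockout-labelled library 21 members were at 20 CPM or more over those cells. The highest were 1700048O20Rik (183 CPM), 1700020I14Rik (163), 1700018B24Rik (121) and the X-linked 1700013H16Rik (118). The long intergenic 1700020I14Rik (chr2:119594297-119607502) was at 155 CPM in the wild-type cells of these stages, and at 50.1 and 59.1 CPM in wild-type and knockout-labelled lP. It was thus higher before pachytene than in it in both libraries. Of the 74 members that reached 20 CPM in a knockout-labelled stage, 42 peaked in lP, 15 in mP, 6 in eP and 11 before.

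The X-linked members were near 0 at pachytene, and those of the RS.3 group were higher before it. Pachytene is the stage at which the sex chromosomes are known to be silenced in male meiosis, and the part of this was not tested. 1700013H16Rik (chrX:53742901-53757831) was at 118 CPM before pachytene in the knockout-labelled library and 161 in the wild-type one, and at 0.38 CPM in wild-type lP, from 3 UMIs, and 1.39 in knockout-labelled lP, from 65. 1700080O16Rik was at 27.9 CPM in wild-type and 17.5 in knockout-labelled cells before pachytene, and at 0.75 and 1.26 CPM in lP. The 4 others, which peak in ES, were at 2.63 CPM or less in lP in both libraries. They were low before pachytene too, at 6.19 CPM or less in wild-type and 0.80 or less in knockout-labelled cells. The median of all 57 members of the ES group in lP was 0.38 CPM in wild type and 0 in the other library. No X-linked member reached the 10 CPM needed for a ratio in mP or lP.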

How the data were processed

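Germ cells of 1 wild-type library and 1 library labelled Zfp541-/- were measured by droplet single-cell RNA-seq. Cell Ranger 3.1.0, Seurat 3.2.0 and the build mm10 stand in the submitters' processing notes. The deposited matrices hold whole-number counts, the UMIs of each gene in each barcode, which were not normalised. Per the file headers, the deposited cell annotation names the library, cluster and stage name of every cell and the percent of its UMIs from mitochondrial genes. It covers 17253 cells in 25 clusters and 15 stages.

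For each library, the UMIs of a gene were added up over the cells of a stage and expressed as CPM. Both sums had 0.5 counts added before the log2 ratio. Because the knockout-labelled totals were larger, this draws ratios of genes of few UMIs towards a value below 0. With 0 UMIs in both libraries the log2 ratio in lP is -2.55. Ratios are for genes reaching 10 CPM in either library. Intervals are exact Poisson for a level, exact Clopper-Pearson for a share and exact conditional binomial for a ratio, at 95%. For zeros the floor was 3 counts. No doublet caller was run, and leaving out cells above 2 times the median UMIs was tried instead. For shares of cells, each cell was thinned to 3000 UMIs, which kept 8230 of 8420 wild-type and 7497 of 8833 knockout-labelled cells. The ratio script was tested on simulated data.

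The median log2 ratio over all genes was 0.15 in mP and 0.11 in lP. Cells of the library labelled Zfp541-/- were deeper, and UMIs per cell would move every log2 ratio by 1.28 in mP and 1.32 in lP.

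All 296 members matched GENCODE M21 (GRCm38) by gene ID. Of 209 with a RefSeq promoter (GRCm38.p6), 169 had a start within 100 bp of the GENCODE start. The members and the lists were chosen with earlier results of these data known. Named members are, by rule, the 3 of highest level in each peak group; the 6 lowest and 6 highest ratios in mP and in lP; the 3 lowest and highest in clusters 12 and 16; the 3 on each side of the threshold; the 4 highest before pachytene; the 4 of at least 100 CPM nearest 0 in lP; and those of opposite sign in mP and lP. The paired neighbours, the X-linked members and the CRE-holding members were named as whole small sets. Python 3.11.15, numpy 2.4.6, scipy 1.17.1, pandas 2.3.3 and matplotlib 3.10.9 were used.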

Additional observations from a re-analysis of the deposited data

How the results depend on the processing

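The comparisons have 1 library per genotype and no replicate check, and depth limits members of few UMIs. Adding 1 count in place of 0.5, median-of-ratios scaling, equal weight for clusters, leaving out cells of over 5% mitochondrial UMIs or of over 2 times the median UMIs, and thinning kept the counts and medians of members in mP and lP, as did membership at 50 CPM. Asking for 50 CPM in the higher library gave 24 lower members in mP and 29 in lP, 2 higher in lP, and medians of -0.55 and -0.67. The share of other genes past 2-fold at 50 CPM is not given here, so these counts stand without a background. Asking for 1 UMI in either library gave 198 and 199 lower, 7 and 9 higher, and medians of -3.70 and -3.60. With 0.5 counts added and unequal totals, 1 wild-type UMI against 0 already gives -4.14 in lP. Members with few wild-type UMIs and none in the other library are thus called lower by construction, so these values are no check of the result. Membership at 10 CPM gave a median of -1.32 in lP.

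UMIs per cell, an alternative chosen after seeing the data, turned the medians to 0.54 in mP and 0.30 in lP, with 29 lower and 35 higher in mP and 39 lower and 37 higher in lP. By its construction it moves each log2 ratio by 1.28 in mP and 1.32 in lP, that of other genes included. The gap between the medians of members and other genes thus stays, and other genes were not counted on this scale. Of the members lower in CPM, 29 of 49 in mP and 39 of 58 in lP were also 2-fold lower in UMIs per cell. It turned 1700029F12Rik in mP to 0.25 and 1700021F05Rik in lP to 0.30. By UMIs per cell the wild-type peak was eP for 0 members, mP for 1, lP for 1, D for 5, MI for 15, RS.1 for 69, RS.2 for 31, RS.3 for 153 and ES for 21. With thinned cells 9 members peaked in lP. Of 44 named ratios past 2-fold, 8 no longer were in UMIs per cell, 2 with equal weight for clusters, 1 with thinned cells and 1 with median-of-ratios scaling. No paired analysis was possible because each genotype has 1 library.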
